A study of Mus musculus with 30 samples.

Results

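The genes described here encode the nuclear subunits of the oxidative phosphorylation system of mitochondria and were chosen by name, as all single-gene entries that begin with Nduf followed by a, b, c, s or v and a digit, with Uqcr, with Cox4 to Cox8 or with Atp5. Such a name was found for 80 of the 23303 entries measured, and 79 of these had a mean of at least 0.5 FPKM (fragments counted per kilobase of transcript and scaled to library size) in either tissue. By name 37 belong to complex I, 8 to complex III, 17 to complex IV and 17 to complex V. Some entries that fit the name rule are not plain subunits of the complex in their name. Ndufa4 is now placed with complex IV, Cox7a2l takes part in joining complexes into larger assemblies, and Atp5s and Atp5sl are named for their likeness to complex V factors. Complex II, cytochrome c and a few further subunits have other names and are given separately as a list of their own.

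Gene expression was measured by RNA-seq in amygdala and trunk blood of male C57BL/6J mice aged 2 to 3 months, and every library came from RNA of 2 pooled mice. The HC (home cage) mice were handled and killed under basal conditions. The FC mice were killed 2 h after auditory fear conditioning, in which a tone is paired with foot shock, and the Immo+FC mice were treated in the same way after 2 h of immobilization on a board about a week earlier. The paper describes 6 sequenced pools per condition, but the data used here hold fewer in some groups. They comprise 6 HC, 6 FC and 4 Immo+FC pools of amygdala. For blood they comprise 4 HC pools and 5 pools each of FC and Immo+FC. By the pool numbers in the labels, 13 of the 14 blood libraries share their pool with an amygdala library, so the tissues are not independent. There is no group with immobilization alone, so its effect without conditioning was not measured. The amygdala tissue was punched around the basolateral nucleus and can hold neighbouring regions, and the blood RNA was depleted of globin transcripts. In bulk RNA of this kind, fewer cells of a type and less RNA per cell cannot be told apart. The paper's blood counts found a larger share of neutrophils and a smaller share of lymphocytes in Immo+FC than in FC and in HC. They found no difference between HC and FC, and these counts were not used in the fits here.

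Oxidative phosphorylation is the route by which mitochondria turn the oxidation of nutrients into ATP. Complexes I, III and IV pass electrons to oxygen and pump protons across the inner membrane, and complex V, the ATP synthase, lets the protons flow back and makes ATP. Neurons depend on this route for ion pumping and synaptic transmission, whereas mature red blood cells have lost their mitochondria and live on glycolysis. Several complex IV subunits have isoform genes that are used in particular tissues. Cox6a2, Cox7a1 and Cox8b are known as heart and skeletal muscle forms and Cox6b2 as a testis form. Complex V draws its membrane ring of c subunits from 3 genes, Atp5g1, Atp5g2 and Atp5g3, whose products differ in the targeting sequence that is removed on import.

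The promoter sequences of 5 isoform genes are shown because the share of each form differed between the tissues, as described further on. They run from 250 bases before to 50 after the start of the gene in RefSeq on GRCm38.p6 and are printed in the direction of the gene, with the motif matches in capitals. Motifs were searched on both strands. The first was the palindromic site of NRF1, a regulator of mitochondrial genes. The ETS factors, a family that includes the mitochondrial regulator GABP, were represented by CCGGAAG. For YY1, a zinc finger factor found at many housekeeping promoters, the letters were AAGATGGCG. The erythroid and other GATA factors were represented by AGATAA. The box read by the factor NF-Y was written as CCAAT, and for SP1, which binds GC-rich promoters, the letters were GGGGCGGGG. A match is only a run of letters in this window and is not evidence of binding.
Cox6b1, chr7:30626065-30626364, minus strand: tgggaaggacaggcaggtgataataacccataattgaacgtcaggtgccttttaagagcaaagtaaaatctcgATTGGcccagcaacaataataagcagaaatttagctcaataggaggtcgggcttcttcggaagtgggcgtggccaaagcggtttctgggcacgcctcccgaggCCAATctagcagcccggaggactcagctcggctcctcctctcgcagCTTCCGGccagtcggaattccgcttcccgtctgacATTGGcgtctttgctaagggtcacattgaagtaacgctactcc
Cox6b2, chr7:4753045-4753344, minus strand: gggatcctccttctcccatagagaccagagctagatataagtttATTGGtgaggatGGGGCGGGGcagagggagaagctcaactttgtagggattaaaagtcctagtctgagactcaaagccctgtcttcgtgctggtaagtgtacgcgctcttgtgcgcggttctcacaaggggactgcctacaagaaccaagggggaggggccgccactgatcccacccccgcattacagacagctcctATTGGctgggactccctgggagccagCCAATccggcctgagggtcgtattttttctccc
Atp5g1, chr11:96075582-96075881, minus strand: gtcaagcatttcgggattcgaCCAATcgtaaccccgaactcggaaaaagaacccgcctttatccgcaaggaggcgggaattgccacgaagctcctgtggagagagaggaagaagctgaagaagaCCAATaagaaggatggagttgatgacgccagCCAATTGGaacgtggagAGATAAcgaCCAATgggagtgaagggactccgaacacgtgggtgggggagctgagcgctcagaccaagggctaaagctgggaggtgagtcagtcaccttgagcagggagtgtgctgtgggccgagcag
Atp5g2, chr15:102670998-102671297, minus strand: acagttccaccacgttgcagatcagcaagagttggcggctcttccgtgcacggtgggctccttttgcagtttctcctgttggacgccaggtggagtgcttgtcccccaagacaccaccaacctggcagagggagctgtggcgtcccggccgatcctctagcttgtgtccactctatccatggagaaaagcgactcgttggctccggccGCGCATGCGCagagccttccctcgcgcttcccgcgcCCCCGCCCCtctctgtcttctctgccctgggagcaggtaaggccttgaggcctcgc
Atp5g3, chr2:73911277-73911576, minus strand: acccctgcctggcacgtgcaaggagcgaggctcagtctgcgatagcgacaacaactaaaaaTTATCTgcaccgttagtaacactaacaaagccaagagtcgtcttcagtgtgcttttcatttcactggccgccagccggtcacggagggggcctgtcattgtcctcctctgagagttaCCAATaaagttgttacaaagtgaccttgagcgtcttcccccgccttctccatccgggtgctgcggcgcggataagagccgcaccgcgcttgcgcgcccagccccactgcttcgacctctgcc
The window of Cox6b1, the common form, holds 1 ETS and 3 CCAAT matches, and the window of Cox6b2 holds 1 SP1 and 3 CCAAT matches. Of the c subunit genes, Atp5g1 has 5 CCAAT matches, a pair of which overlap, with 1 GATA match, Atp5g2 has 1 NRF1 and 1 SP1 match, and Atp5g3 has 1 CCAAT and 1 GATA match. Of the 63 subunit genes with a RefSeq promoter entry, 5 (7.94%) held the NRF1 letters, against 1.07% of all 27025 genes with an entry. The ETS letters were found in 14 (22.2%, all genes 9.93%) and the YY1 letters in 7 (11.1%, all genes 1.64%). The CCAAT letters were in 27 (42.9%, all genes 41.1%), the SP1 letters in 9 (14.3%, all genes 12.9%) and the GATA letters in 6 (9.52%, all genes 12.7%). The median GC content was 57.0% over the 68 promoter entries of the subunit genes and 52.7% over all 32851 entries.

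Amygdala libraries held 23148078 to 31366290 sequences with 91.33 to 92.3% mapped to 1 place, and blood libraries 9081977 to 25892322 with 60.06 to 72.59%. The tissue labels were checked against marker genes. The summed level of 8 neuron markers was 1865 to 2266 FPKM in amygdala and 9.30 to 54.0 FPKM in blood, and that of 7 platelet markers found in the table was 1.41 to 2.43 FPKM in amygdala and 6115 to 13337 FPKM in blood. Some libraries stood apart. HC blood 3 had the highest summed FPKM over all genes, 1674854 against 664738 to 1002978 in the other blood libraries, and HC blood 4 had the fewest sequences. Immo+FC amygdala 1 had the fewest sequences and the lowest unique mapping of its tissue. The HC blood libraries also differed in cell markers: the summed neuron markers were 18.5 to 54.0 FPKM against 9.30 to 21.3 FPKM in the other blood groups. Values without HC blood 3 stand beside the blood results that it moves most.

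The subunit genes were among the highly expressed genes of both tissues. Their median level was 98.5 FPKM in amygdala and 113 FPKM in blood, where the median of all genes tested was 7.93 FPKM and 8.10 FPKM. Summed, they took 3.62 to 4.37% of the summed FPKM of an amygdala library and 1.88 to 2.32% of that of a blood library. In amygdala the highest mean levels were those of Atp5k (554 FPKM), the e subunit of ATP synthase, Cox8a (553 FPKM), Cox6a1 (503 FPKM) and Atp5b (490 FPKM), the catalytic beta subunit. In complex I the highest were Ndufa4 (400 FPKM) and Ndufa3 (227 FPKM), and in complex III Uqcrh (234 FPKM), the hinge protein, and Uqcr10 (188 FPKM). The lowest in amygdala were Cox7b2 (0.713 FPKM) and Cox4i2 (1.31 FPKM), isoforms of complex IV, with Ndufa4l2 (1.54 FPKM) and Ndufb4 (9.42 FPKM) in complex I and Atp5l (7.46 FPKM) and Atp5s (8.66 FPKM) in complex V. The complex III members spanned a narrower range, and their lowest was Uqcrfs1 (66.4 FPKM), the Rieske iron-sulfur protein, after Uqcrc2 (96.7 FPKM), a core protein.

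In blood the highest were Cox6a1 (1593 FPKM), Uqcrh (1239 FPKM), Cox6c (1222 FPKM) and Ndufa3 (1103 FPKM), followed in complex V by Atp5h (833 FPKM) and Atp5k (794 FPKM) and in complex I by Ndufa1 (591 FPKM). Uqcr10 followed Uqcrh in complex III at 279 FPKM. With HC blood 3 left out the means were 1385 FPKM for Cox6a1, 1095 FPKM for Cox6c, 1048 FPKM for Uqcrh and 1014 FPKM for Ndufa3. The lowest in blood were Cox7b2, listed at 0 in all 14 libraries, Ndufa4l2 (0.124 FPKM), Cox8b (0.157 FPKM) and Atp5s (3.13 FPKM). Atp5sl (23.02 FPKM), Ndufb4 (8.33 FPKM), Uqcrfs1 (60.0 FPKM) and Uqcrc1 (77.0 FPKM) completed the low ends of their complexes. Of the 79 genes, 38 in amygdala and 43 in blood exceeded 100 FPKM. The order of levels was alike in the tissues, with a Spearman rho of 0.826 across the 79 genes, which are not independent replicates.

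**Figure D1:**
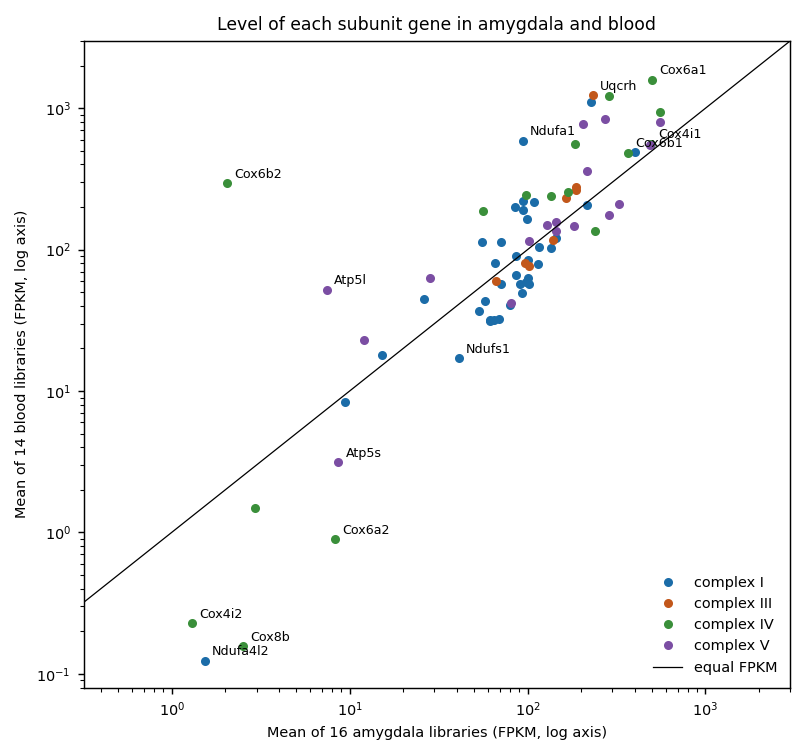
Mean FPKM of each subunit gene over 16 amygdala libraries (horizontal, log axis) and 14 blood libraries (vertical, log axis), 1 point per gene, with the line of equal FPKM. Of the 79 genes 40 lie above the line, Cox6b2 lies far above it at 2.06 and 296 FPKM, and Cox7b2, listed at 0 in blood, is not drawn.

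The tissues were processed separately by the authors, so levels are set side by side without a test. Of the 79 genes 19 were higher and 20 lower in every blood library than in every amygdala library, where 31.6% and 33.2% of the 10285 genes expressed in both tissues did so. The median of the log2 ratio of blood to amygdala was 0.049 for the subunit genes, against -0.013 over those 10285 genes and 3.48 for 79 cytosolic ribosomal protein genes. The complexes differed: the median log2 ratio was -0.26 in complex I, 0.18 in complex III, 0.61 in complex IV and 0.17 in complex V, and -0.42 for the 7 core subunits of complex I, those that carry the redox centres. It was higher in genes with a shorter coding sequence, with 0.57 for 23 genes of up to 300 bases, -0.09 for 37 genes of 300 to 600 bases and -0.35 for 18 longer genes. Without HC blood 3 the length classes had 0.41, -0.16 and -0.37, complexes I, III, IV and V had -0.32, 0.087, 0.48 and 0.15, and all subunit genes together had 0.019. Of the 18 longest genes, 0 were higher and 8 lower in every blood library than in every amygdala library.

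The largest ratio was that of Cox6b2 (chr7:4751792-4753094, minus strand, GRCm38). Its level in amygdala was 0.758 to 2.56 FPKM in HC (median 2.00), 1.72 to 2.74 FPKM in FC (median 2.18) and 3.36, 2.15, 1.97 and 1.52 FPKM in Immo+FC. In blood it was 176, 115, 1216 and 395 FPKM in HC, 256, 250, 198, 202 and 275 FPKM in FC and 215, 258, 165, 181 and 246 FPKM in Immo+FC. The lowest blood library exceeded the highest amygdala library, and HC blood 3 and 4 were the highest of blood. The other form, Cox6b1 (chr7:30616861-30626151, minus strand), had means of 367 FPKM in amygdala and 483 FPKM in blood. Cox6b2 therefore made up 0.558% ± 0.153 (SD, n = 16) of the summed Cox6b1 and Cox6b2 FPKM in amygdala and 34.5% ± 8.42 (SD, n = 14) in blood, from 25.2 to 61.2%. Without HC blood 3 the blood share was 32.4% ± 3.54 (SD, n = 13) and the mean level 225 FPKM in place of 296 FPKM. The coding sequences of the pair were identical in 51.1% of aligned positions and the longest run their transcripts shared was 14 bases.

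After Cox6b2, the 4 genes with the largest blood to amygdala ratio were Atp5l (6.98-fold), the g subunit of ATP synthase, Ndufa1 (6.30-fold), an accessory subunit of complex I, Uqcrh (5.31-fold) and Ndufa3 (4.86-fold). These ratios were 5.796, 5.51, 4.49 and 4.47 without HC blood 3. Atp5l was 5.58 to 10.2 FPKM in amygdala and 27.8 to 167 FPKM in blood, and 61.3% of the 100-base windows of its transcript also occur in transcripts of 5 other genes, so that its reads are hard to assign. At the other end were Cox8b, Cox6a2, Cox7b2, Ndufa4l2 and Cox4i2, low in amygdala and near or at 0 in blood. Cox6a2 was 6.61 to 10.4 FPKM in amygdala and 0 to 1.80 FPKM in blood, with no overlap of libraries, and took 1.63% ± 0.201 (SD, n = 16) of the Cox6a pair in amygdala and 0.070% ± 0.055 (SD, n = 14) in blood. Values of 0 in an FPKM table can be failed estimates and their depth is unknown. Of 7 heart muscle markers 2 reached a mean of 0.5 FPKM in the amygdala groups. All 7 together summed to 6.43 to 10.1 FPKM there, and Actc1, the cardiac actin, was listed at 0 in every library. The 11 skeletal muscle markers summed to 4.34 to 6.23 FPKM in amygdala.

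**Figure D2:**
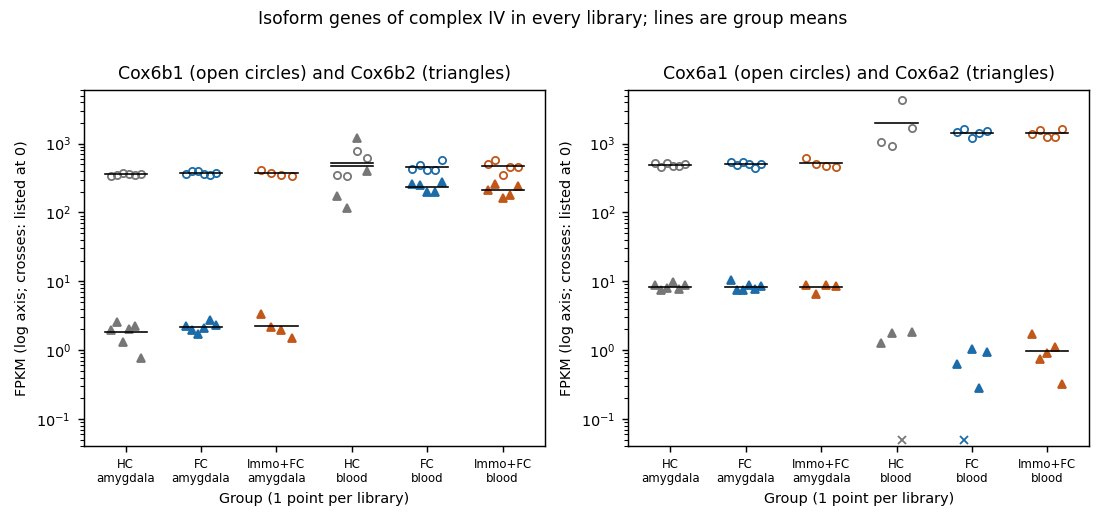
FPKM of 2 isoform pairs of complex IV in each library (vertical, log axis), by tissue and group, with open circles for the common form, triangles for the other form, crosses for values listed at 0 and lines for group means where no library is at 0. Cox6b2 lies near 2 FPKM in every amygdala group and between 115 and 1216 FPKM in blood, and Cox6a2 goes the other way.

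The c subunit of ATP synthase came mainly from Atp5g3 in both tissues, with 74.9% ± 1.01 (SD, n = 16) of the summed FPKM of the 3 genes in amygdala and 66.4% ± 2.60 (SD, n = 14) in blood. Atp5g1 contributed 18.6% ± 0.602 in amygdala and 13.4% ± 0.920 in blood. Atp5g2 contributed 6.53% ± 0.605 in amygdala and 20.2% ± 2.26 in blood. The lowest Atp5g2 share in blood, 16.9%, exceeded the highest in amygdala, 7.98%. Of the 100-base windows of the Atp5g2 transcript 86.4% also occur in a gene named Gm10175, so the Atp5g2 value depends on how shared reads were assigned. Over all genes with a coding transcript, 59 of 78 shared no such window with another gene, and 2 shared over 50%.

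Isoform shares were compared between the groups of a tissue by two-sided exact permutation tests. With so few libraries a change in a lone share could not pass, because the smallest possible exact p is too large for the adjustment. The counts that passed therefore cannot show that each share was unchanged. In amygdala 0 of 30 shares passed an adjusted p of 0.05 and 0 had an unadjusted p under 0.05. In blood 0 of 18 passed and 1 had an unadjusted p under 0.05. It was the share of Atp5g1, 12.8% ± 0.463 (SD, n = 5) in Immo+FC and 13.96% ± 0.443 (SD, n = 4) in HC, with an exact permutation p of 0.0159, the smallest that 5 against 4 libraries allow, and an adjusted p of 0.286. Cox6b2 took 39.6% ± 15.5 (SD, n = 4) in HC blood, 33.7% ± 1.98 (SD, n = 5) in FC blood and 31.2% ± 2.45 (SD, n = 5) in Immo+FC blood, and the HC range of 25.2 to 61.2% enclosed the others. The HC share was 32.4% ± 6.89 (SD, n = 3) without HC blood 3.

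**Figure D3:**
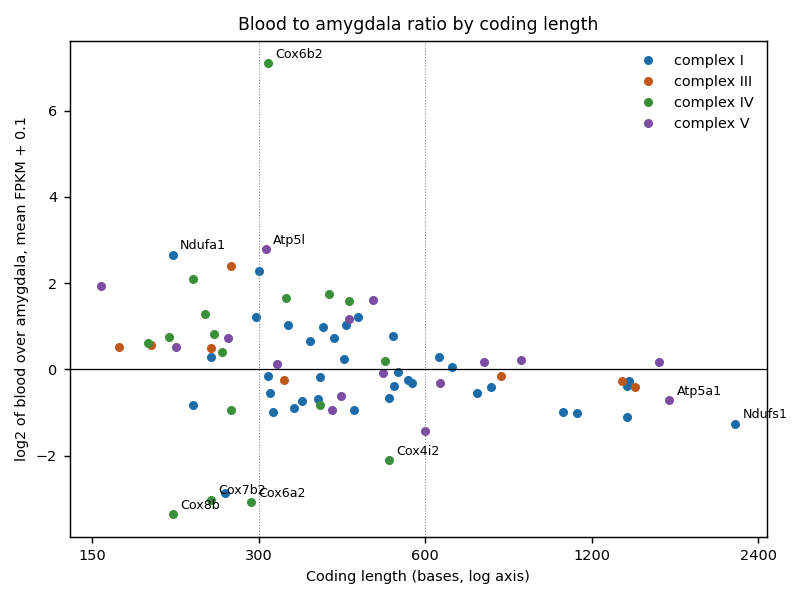
The log2 ratio of mean blood to mean amygdala level (FPKM + 0.1) of each subunit gene against the length of its coding sequence in bases (log axis), with dotted lines at 300 and 600 bases. Genes of up to 300 bases had a median of 0.57 and those over 600 bases a median of -0.35, and Cox6b2 (7.10) and Atp5l (2.79) lie highest.

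The first comparison, FC with HC, asked what differed after the whole conditioning procedure. By the paper's methods the conditioned mice were first habituated to the chambers, and no group had chamber, tone or shock alone. In amygdala no subunit gene passed the test: 0 of 79 had an adjusted p under 0.05 in limma, where 0.0148% of 13508 genes did (2 genes). At an unadjusted p under 0.05, 1 of 79 was higher and 0 were lower in FC, where 6.59% and 6.48% of all genes were. That gene was Uqcrh, the hinge protein of complex III, with 208 to 232 FPKM in HC (median 228), 230 to 260 FPKM in FC (median 239) and 250, 232, 242 and 219 FPKM in Immo+FC. The FC and HC ranges overlapped only slightly, and its log2 fold change was 0.10 ± 0.042 (SE), with an adjusted p of 0.273. The values leaned upward as a group, since 72 of 79 were higher in FC, but by little, with a median log2 fold change of 0.051 and a median of 0.015 over all genes tested, of which 7636 of 13508 were higher. The median was 0.051 in complex I, 0.046 in complex III, 0.059 in complex IV and 0.055 in complex V. The 77 ribosomal protein and 37 proteasome genes tested had medians of 0.037 and 0.037. The lean depended on the fit: quantile normalization gave a median of 0.017, and a covariate for the mean level of transcripts over 10000 bases turned it to -0.028.

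The next smallest p-values in this comparison were those of Uqcrc1, a core protein of complex III (100 ± 2.94 FPKM in HC and 105 ± 2.49 FPKM in FC, SD, n = 6 each), Atp5b (480 ± 15.2 and 502 ± 10.3 FPKM), Atp5g3 (314 ± 9.39 and 333 ± 14.4 FPKM) and Ndufb5, an accessory subunit of complex I (67.1 ± 1.98 and 73.0 ± 5.76 FPKM). Their adjusted p-values in limma were 0.394, 0.394, 0.416 and 0.460. In 1 gene, Atp5c1, the gamma subunit of ATP synthase, the FC libraries (128 to 138 FPKM) all lay above the HC libraries (124 to 127 FPKM), where 1.39% of genes had groups that did not overlap. The 95% interval of the log2 fold change lay within -0.25 and 0.25 for 69 of 79 genes, which leaves larger changes of these genes outside the interval.

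In blood 0 of 75 subunit genes passed in limma, where 0.0343% of 11656 genes did (4 genes). At an unadjusted p under 0.05, 1 was higher and 0 were lower, against 4.34% and 5.87% of all genes. It was Ndufa9, an accessory subunit of complex I (chr6:126821721-126849136, minus strand), at 28.4, 27.5, 27.4 and 27.2 FPKM in HC and 35.1, 28.5, 33.2, 31.9 and 38.9 FPKM in FC. All FC libraries lay above the HC libraries, as in 3.88% of genes, and the log2 fold change was 0.27 ± 0.11 (SE), with an adjusted p of 0.389. The further genes by p were Ndufc2 (63.6 ± 9.96 FPKM in HC and 53.7 ± 5.35 FPKM in FC), Ndufa12 (37.7 ± 12.2 and 29.3 ± 4.22 FPKM), Ndufs1 and Ndufb6 (68.8 ± 15.1 and 55.7 ± 3.88 FPKM, SD, n = 4 and 5). The median log2 fold change over the 75 genes was -0.14 against -0.013 over all genes tested, and 19 were higher in FC. This median rests on HC blood 3: without it the median was 0.085, and without HC blood 3 and 4, a setting chosen after seeing the data, it was 0.21. The intervals were wide, with 3 of 75 within -0.25 and 0.25.

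**Figure D4:**
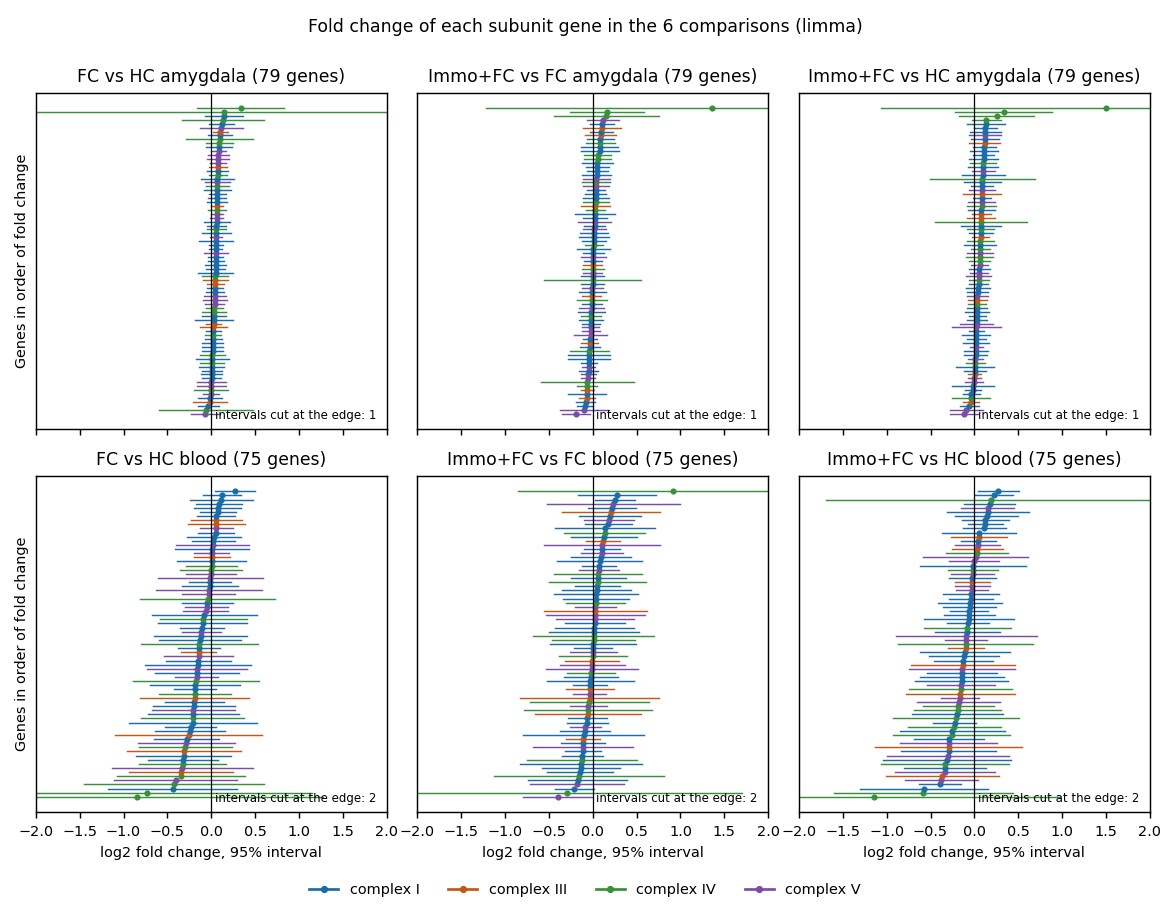
Log2 fold change of each subunit gene with its 95% interval from limma (horizontal) in the 6 comparisons, with the genes of each panel in order of fold change and coloured by complex. Intervals are narrow around 0 in amygdala, with Cox8b as the widest, and wide in blood, where 3 of 75 lie within -0.25 and 0.25 in each comparison.

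The comparison of Immo+FC with FC asked what differed between conditioned mice with and without earlier immobilization. Without a group of immobilization alone, its lasting effect and a changed response to conditioning cannot be told apart. In amygdala 0 of 79 genes passed in limma, where 0.0222% of 13508 genes did (3 genes). At an unadjusted p under 0.05, 0 were higher and 1 was lower, against 3.94% and 6.49% of all genes, and 0 had groups that did not overlap, against 2.28%. The lower one was Atp5s, a coupling factor of ATP synthase, with 8.10 to 10.54 FPKM in FC (median 8.99) and 8.92, 7.99, 6.75 and 8.30 FPKM in Immo+FC. The ranges overlapped, and the log2 fold change was -0.19 ± 0.074 (SE), with an adjusted p of 0.370. The next by p were Ndufa9 (66.7 ± 2.26 FPKM in FC and 62.8 ± 2.92 FPKM in Immo+FC), Uqcrc1 (105 ± 2.49 and 100 ± 4.00 FPKM), Ndufs6, an accessory subunit of complex I (69.0 ± 3.74 and 74.5 ± 8.35 FPKM), and Uqcrc2 (98.5 ± 3.06 and 94.0 ± 4.71 FPKM, SD, n = 6 and 4). The median log2 fold change was 0.0042, against -0.023 over all genes tested. Without Immo+FC amygdala 1 it was -0.057, and with the covariate for long transcripts 0.093.

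In blood 0 of 75 genes passed in this comparison, where 0.0% of 11656 genes did in limma (675 genes had higher and 437 lower values with an unadjusted p under 0.05, 5.79% and 3.75%). Among the subunit genes 1 had higher and 1 lower values with such a p. Ndufb3, an accessory subunit of complex I, was 105, 96.9, 98.0, 85.4 and 91.4 FPKM in FC and 106, 141, 108, 118 and 98.1 FPKM in Immo+FC, with some overlap, a log2 fold change of 0.25 ± 0.11 (SE) and an adjusted p of 0.523. Atp5sl was 19.8, 23.3, 29.5, 27.5 and 25.3 FPKM in FC and 15.8, 16.9, 20.7, 19.6 and 21.7 FPKM in Immo+FC, with a log2 fold change of -0.40 ± 0.18 (SE) and an adjusted p of 0.523. Ndufs1, the largest core subunit of complex I (chr1:63143596-63176833, minus strand), was 16.5, 16.2, 17.3, 18.6 and 17.4 FPKM in FC and 13.5, 15.7, 15.7, 15.1 and 14.2 FPKM in Immo+FC. Its groups did not overlap, as in 1.58% of genes, and its adjusted p was 0.539. Ndufs5 (29.3 ± 4.43 FPKM in FC and 33.9 ± 3.73 FPKM in Immo+FC) and Ndufc2 (53.7 ± 5.35 and 61.1 ± 9.45 FPKM, SD, n = 5 each) followed. The median log2 fold change was 0.0062, against -0.013 over all genes tested.

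Immo+FC and HC differ in both treatments, and this comparison shares its libraries with those above. In amygdala 0 of 79 genes passed in limma, where 0.2% of 13508 genes did (27 genes). At an unadjusted p under 0.05, 0 were higher and 0 lower, against 5.34% and 7.73% of all genes, and 0 had groups that did not overlap, against 2.57%. The smallest p-values were those of Ndufa3 (217 ± 9.47 FPKM in HC and 238 ± 21.5 FPKM in Immo+FC), Ndufa11 (14.7 ± 0.682 and 15.9 ± 1.29 FPKM), Ndufb11 (83.1 ± 3.36 and 90.4 ± 12.7 FPKM) and Ndufb10 (132 ± 6.52 and 140 ± 7.94 FPKM), accessory subunits of complex I, and Cox7c of complex IV (161 ± 4.66 and 179 ± 29.1 FPKM, SD, n = 6 and 4). Their adjusted p-values in limma ranged from 0.412 to 0.498. The values were higher in 70 of 79 genes, with a median log2 fold change of 0.060 against -0.012 over all genes tested. This rests on Immo+FC amygdala 1, in which 48 of 79 genes (60.8%) had their highest value of the 16 libraries, as did 11.8% of all genes tested, and without it the median was -0.0089.

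In blood 0 of 75 genes passed in limma, where 0.0686% of 11656 genes did (8 genes). With an unadjusted p under 0.05, 2 had higher and 1 lower values, against 7.14% and 8.12% of all genes. The lower one was Ndufs1, at 17.8, 17.8, 25.7 and 17.9 FPKM in HC and at 13.5 to 15.7 FPKM in Immo+FC. All HC libraries lay above the Immo+FC libraries, as in 4.61% of genes, with a log2 fold change of -0.39 ± 0.11 (SE) and an adjusted p of 0.110. These were -0.26 and 0.106 without HC blood 3. The FC libraries, 16.2 to 18.6 FPKM, overlapped the HC range and lay above the Immo+FC range. Ndufa9 was again higher, 33.7 ± 4.44 FPKM in Immo+FC and 27.6 ± 0.519 FPKM in HC (SD, n = 5 and 4), with an adjusted p of 0.241 in limma. Atp5sl (18.96 ± 2.49 FPKM in Immo+FC and 25.5 ± 7.65 FPKM in HC) and Ndufs3 (40.1 ± 5.50 and 46.7 ± 5.53 FPKM) followed. Without HC blood 3 Atp5sl passed, 1 of 75 genes where 2.55% of all genes did (296 of 11608), with a log2 fold change of -0.62 and an adjusted p of 0.0368 in limma, this library having the lowest HC value (14.8 FPKM against 27.1, 33.0 and 27.2 FPKM). The median over the 75 genes was -0.098 with all libraries and 0.077 without HC blood 3, against -0.018 over all genes tested with all libraries.

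Whether a change differed between the tissues was tested in limma over all 30 libraries, in a fit that treats the tissues as independent although they share pools. With the pool as a random block, a setting chosen after seeing the data, the estimated correlation within a pool was 0.059 and 0 of 75 genes passed in each contrast, with 0, 1 and 4 at an unadjusted p under 0.05. For FC with HC 0 of 75 genes passed, where 2.29% of 10285 genes did, and 0 had an unadjusted p under 0.05. For Immo+FC with FC 0 passed (all genes 0.00972%) and 1 had an unadjusted p under 0.05, Atp5sl, at 0.40 (95% interval 0.058 to 0.74) for the log2 change in amygdala minus that in blood. For Immo+FC with HC 0 passed (all genes 3.0%) and 4 had an unadjusted p under 0.05. These were Ndufa9 (-0.31, interval -0.54 to -0.076), Ndufs1 (0.34, interval 0.078 to 0.60), Ndufa11 (0.44, interval 0.035 to 0.85) and Atp5sl (0.38, interval 0.018 to 0.73), with adjusted p-values of 0.173 to 0.332. Without HC blood 3, Atp5sl (0.62, adjusted p of 0.0125) and Atp5b (-0.41, adjusted p of 0.0330) passed in that contrast, where 4.35% of all genes did.

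The spread among libraries was larger in blood. The residual SD of the log2 values had a median over the subunit genes of 0.105 in amygdala and 0.299 in blood, against 0.126 and 0.266 over all genes tested, and of 0.476 in complex IV of blood. The mean log2 deviation of the subunit genes from their tissue mean was -0.07 to 0.10 in 15 amygdala libraries and 0.23 in Immo+FC amygdala 1. In blood it was 0.62 in HC blood 3, 0.23 in HC blood 4, -0.22 and -0.27 in HC blood 1 and 2, -0.20 to 0.18 in FC and -0.15 to 0.11 in Immo+FC. The 4 HC blood libraries thus lay above and below all others of that tissue.

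**Figure D5:**
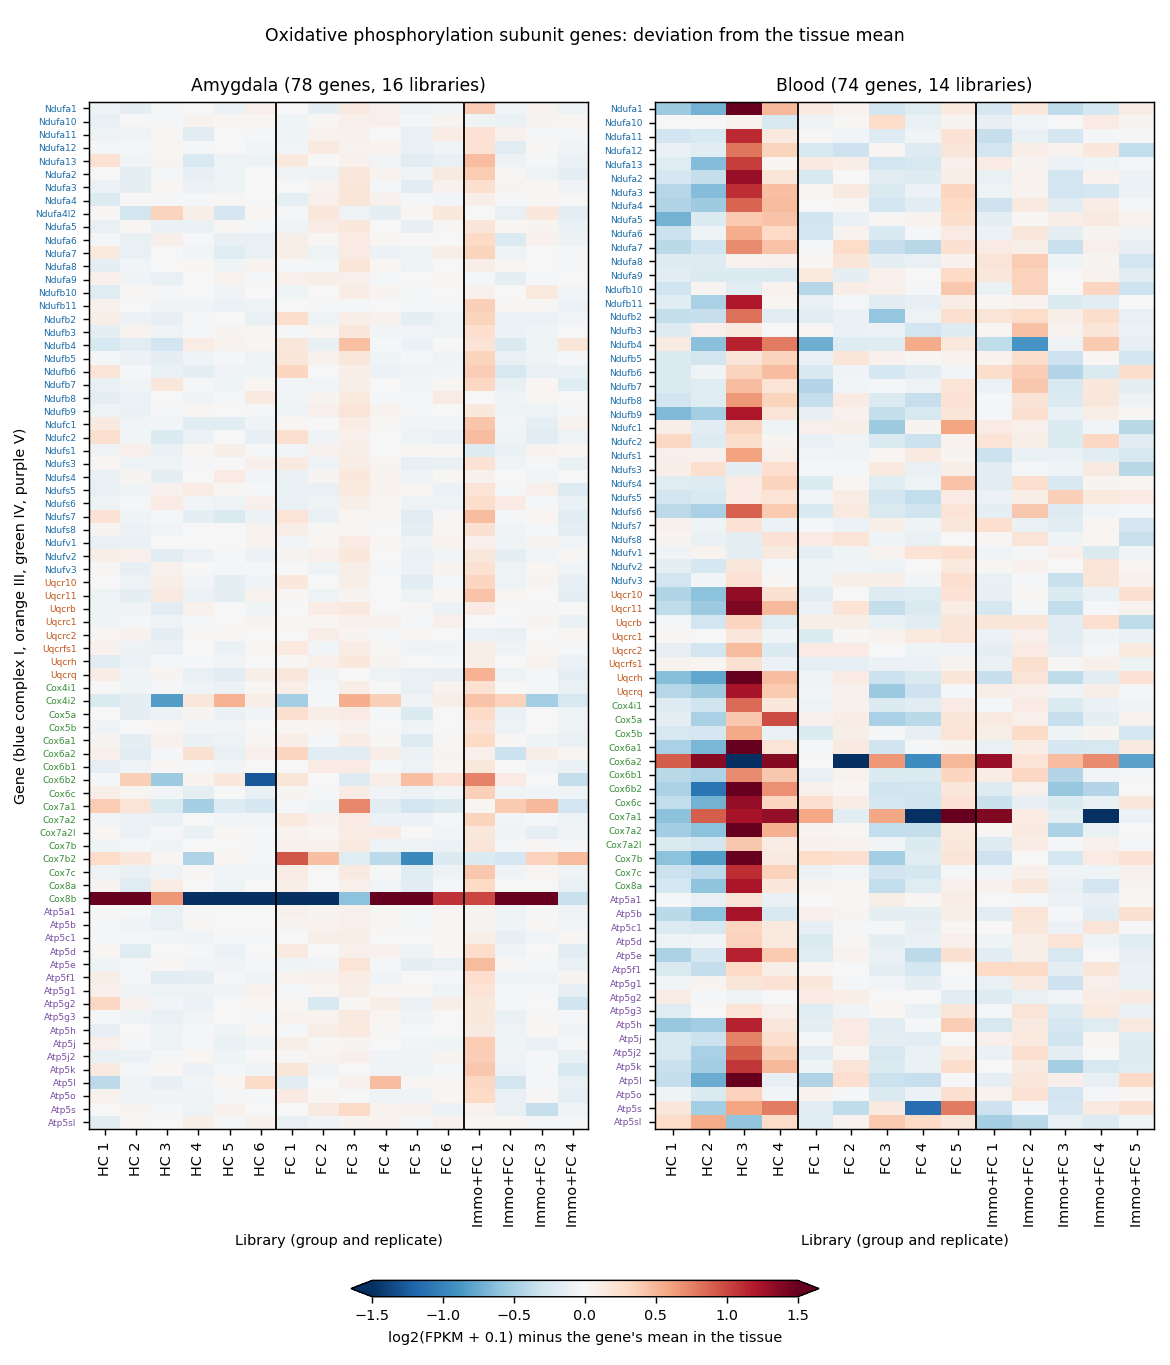
Deviation of log2(FPKM + 0.1) from the gene's mean in its tissue, with 78 genes in amygdala and 74 in blood in rows by complex and libraries in columns by group, colours from -1.5 (blue) to 1.5 (red). HC blood 3 is high across most rows with a mean of 0.62, Immo+FC amygdala 1 is high with a mean of 0.23, and Cox8b varies most in amygdala.

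In HC blood 3, 46 of 75 subunit genes (61.3%) had their highest value of the 14 blood libraries, as did 21.02% of all genes tested. The deviation was greater in short genes: the mean was 0.99 for 20 genes with a coding sequence of up to 300 bases and 0.22 for 18 genes over 600 bases, and 0.49 for ribosomal protein genes. The highest was that of Cox6b2 (2.31) and the lowest that of Cox6a2 (-2.87), listed at 0 in this library. The summed erythroid markers were also highest in HC blood 3. The sum of the 10 of 16 listed markers found in the table was 22244, 20295, 186580 and 86856 FPKM in HC blood 1 to 4. It was 21434 to 40667 FPKM in FC and 26201 to 51376 FPKM in Immo+FC. The list of 16 includes globin genes, whose transcripts were depleted from the blood RNA. Outside HC blood 3 and 4 the sums and the subunit genes did not always go together. FC blood 5 (33195 FPKM) had 67 of 75 subunit genes above their blood mean, and Immo+FC blood 5 (51376 FPKM) had 29. Of the erythroid markers Alas2, the erythroid enzyme of heme synthesis, was listed at 0 in all blood libraries. Neutrophil markers, 9 of 10 found, summed to 5661, 5043, 29570 and 4482 FPKM in HC blood 1 to 4. They summed to 8406 to 20820 FPKM in FC and 12185 to 44009 FPKM in Immo+FC. The part of erythroid cells and neutrophils in the blood values was not tested. With both marker scores as covariates 0 of 75 genes passed in each comparison, as without them, so this count cannot show their part. For FC against HC, Immo+FC against FC and Immo+FC against HC the medians were -0.050, -0.033 and -0.071 with the covariates (all genes 0.00016, -0.0018 and 0.0031). They were -0.14, 0.0062 and -0.098 without the covariates.

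Cox8b was the most variable subunit gene in amygdala, and its levels went with markers of the choroid plexus, an epithelium of the brain ventricles. The summed level of 8 choroid plexus markers was 2.66 to 86.8 FPKM in 6 libraries, in which Cox8b was 0 to 0.768 FPKM, and 114 to 1061 FPKM in the other 10, in which Cox8b was 0.952 to 7.65 FPKM. The ranges did not overlap. By group the marker sums were 2.66 to 1061 FPKM in HC, 3.18 to 915 FPKM in FC and 114 to 967 FPKM in Immo+FC, and Cox8b had a log2 fold change of 1.36 (95% interval -1.21 to 3.93) in Immo+FC against FC. This split was noticed after the values were seen, and the part of that tissue in the Cox8b values was not tested.

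Genes that work with the subunits were described in the same fits, and 0 of 88 genes in amygdala and 0 of 86 in blood, from 5 lists, passed in limma in any comparison. At an unadjusted p under 0.05, 8 had higher and 2 lower values in FC against HC in amygdala, where 6.59% and 6.48% of all genes did. In Immo+FC against FC they were 2 and 9 (all genes 3.94% and 6.49%), and in Immo+FC against HC 4 and 3 (all genes 5.34% and 7.73%). In blood the counts were 1 and 2 in FC against HC (all genes 4.34% and 5.87%), 2 and 2 in Immo+FC against FC (all genes 5.79% and 3.75%), and 2 and 2 in Immo+FC against HC (all genes 7.14% and 8.12%). The 12 respiratory chain genes outside the name rule had median log2 fold changes of 0.048 in FC against HC in amygdala and -0.076 in blood. Cycs, which encodes cytochrome c, had a log2 fold change of 0.088 in FC against HC in amygdala, with an adjusted p of 0.365, and Etfdh, which feeds electrons to ubiquinone, one of -0.36 in blood, with an adjusted p of 0.272. Of the assembly factors, 40 of 44 were tested in each tissue, with medians of 0.035 and -0.018. Coa6, a copper-handling factor of complex IV, had a log2 fold change of 0.39 in Immo+FC against FC in blood, with an unadjusted limma p of 0.000946 and an adjusted p of 0.523.

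Of 13 regulators of mitochondrial biogenesis 13 were tested in amygdala and 11 in blood, and in FC against HC in amygdala 3 had higher and 1 had lower values with an unadjusted p under 0.05 (all genes 6.59% and 6.48%). Gabpb1 and Gabpb2, partners of the ETS factor GABP, had log2 fold changes of 0.18 and -0.34, with adjusted p-values of 0.139 and 0.155 in limma. Esrra, an orphan nuclear receptor that drives mitochondrial genes, had 0.25 in Immo+FC against HC in amygdala, with an adjusted p of 0.220. Of the 17 genes of pyruvate dehydrogenase and the citric acid cycle 16 had lower values in Immo+FC than in FC in amygdala, 5 of them at an unadjusted p under 0.05 (all genes 6.49%), with a median log2 fold change of -0.086. Of all genes tested 8111 of 13508 had lower values, with a median of -0.023. So did 8 of 8 neuron markers, with a median of -0.074 and 2 at an unadjusted p under 0.05. This was not particular to neuron markers. Values were also lower in 6 of 6 oligodendrocyte markers (median -0.065), 5 of 6 pericyte markers (median -0.10) and 32 of 37 proteasome genes. They were lower in 3 of 5 microglia, 2 of 6 astrocyte, 2 of 5 endothelial and 0 of 8 choroid plexus markers, and in 13 of 77 ribosomal protein genes. The part of these markers in the list's values was not tested. Ogdh and Fh1, enzymes of the cycle, had -0.15 and -0.11, with adjusted p-values of 0.343 and 0.368. Of 7 carriers and pore genes 6 were tested, and Vdac1, a channel of the outer membrane, had -0.11 in that comparison, with an adjusted p of 0.384.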

How the data were processed

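RNA-seq libraries of 16 amygdala and 14 blood pools were analysed. Per the submitters' processing notes and the study's methods, reads were aligned by the authors with STAR 2.3 (genome mm10), and they estimated FPKM with Cufflinks 2.1.1 and Cuffdiff 2.1.1, each tissue on its own. The deposited FPKM table has 23303 entries, of which 272 join several symbols. It has no entries for mitochondrially encoded genes, and FPKM keeps no depth. The deposited mapping table gives counts of sequences per library and the percent mapped to 1 or several places, as made by the authors. The lane and batch of each library are not given in the sources used here.

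Values were fitted as log2(FPKM + 0.1) in limma 3.58.1 (R 4.3.3) with a mean-variance trend, keeping genes whose mean in a tissue reached 0.5 FPKM, with 3 groups in 1 fit, two-sided, with Benjamini-Hochberg adjustment over all genes tested and a threshold of 0.05. Fold changes are on this scale and understate changes of low genes. For FC against HC and Immo+FC against FC, the paper's own Cuffdiff test called many more genes in each tissue than limma did here. Few calls here are therefore no evidence that expression was unchanged. Changes in the tissues were compared in 1 fit of 30 libraries with a weight per tissue, which treats the tissues as independent although most blood pools were also sampled for amygdala. Isoform shares were compared by exact permutation with adjustment within a tissue. Levels were not tested between tissues. Named genes are the 5 with the smallest p in each comparison, those that pass, the isoform sets, the 2 highest and 2 lowest of each complex, the 5 highest and 5 lowest tissue ratios, and up to 4 of each further list. The members, lists and rules were chosen with earlier results of these data known. GENCODE vM21 (GRCm38, the same assembly as mm10) gave lengths and positions for 78 of 79 members. Values of 1 gene are not reported here, although it is in the counts. The fits were checked on simulated data. Replicates are pools of mice, and p-values measure the spread between these pools. Alternatives were other pseudocounts, minimum values, scalings, fits, covariates and left-out libraries.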

Additional observations from a re-analysis of the deposited data

Results flagged for a closer look

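Of 138 groups of 4 to 10 values checked, 3 held a library whose gap to the nearest other exceeded the 95% limit of Dixon's test, and chance alone flags about 1 in 20. The Cox6a2 share was 2.03% in HC amygdala 4 and 1.52 to 1.67% in the other HC amygdala libraries. Ndufa9 was 58.4 FPKM in Immo+FC amygdala 2 and 64.1 to 64.6 FPKM in the other 3. Ndufs1 was 25.7 FPKM in HC blood 3 and 17.8 to 17.9 FPKM in the other 3, the library that also stood apart in its summed FPKM.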

How the results depend on the processing

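Under 28 to 30 other settings per comparison, 0 subunit genes passed the threshold in 5 of the 6 comparisons within a tissue. The exception was Immo+FC against HC in blood, where leaving out 1 library at a time gave 0 to 1 genes, with 1 (Atp5sl) without HC blood 3. Leaving out 1 library at a time gave 0 to 2 genes for the difference of that contrast between the tissues, with 2 (Atp5sl and Atp5b) without HC blood 3. In those fits 2.55% and 4.35% of all genes passed. The smallest adjusted p of a subunit gene over the settings was 0.186 to 0.457 for FC against HC, 0.118 to 0.650 for Immo+FC against FC and 0.182 to 0.6999 for Immo+FC against HC in amygdala, and 0.255 to 0.627, 0.272 to 0.899 and 0.0368 to 0.267 in blood.

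The medians over the subunit genes moved more. With the score of long transcripts as a covariate they were -0.028 (FC against HC) and 0.093 (Immo+FC against FC) in amygdala, where all genes tested had 0.022 and -0.037. With limma array weights they were 0.116 (FC against HC) and 0.142 (Immo+FC against HC) in blood (all genes 0.021 and 0.010). Without HC blood 3 and 4, a setting chosen after seeing the data, they were 0.211 and 0.248 (all genes 0.019 and 0.012). Leaving out 1 library at a time gave 0.034 to 0.067, -0.057 to 0.040 and -0.0089 to 0.087 in amygdala, and -0.252 to 0.085, -0.041 to 0.066 and -0.227 to 0.077 in blood, for FC against HC, Immo+FC against FC and Immo+FC against HC. Quantile normalization turned the median of Immo+FC against FC in blood to -0.039, where the median over all genes tested was -0.033. The cause of these shifts was not tested. The number of all genes that passed ranged over the settings from 1 to 500, 1 to 171 and 0 to 148 in amygdala and from 1 to 195, 0 to 0 and 1 to 361 in blood.

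Replicate numbers did not pair the samples, since the labels give each group other pool numbers. Libraries of the same number in different groups had correlations of deviations from -0.257 to 0.31 in amygdala and from -0.25 to 0.207 in blood. For libraries of different numbers these were -0.269 to 0.258 and -0.287 to 0.292. With the replicate block 0 subunit genes passed in each comparison, with medians of 0.051, -0.0053 and 0.044 in amygdala and -0.139, 0.0062 and -0.135 in blood, and 160, 62, 0, 2, 0 and 8 of all genes passed.

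FPKM keeps no depth, so intervals of counting error are not given. In blood 3 of 75 intervals lay within -0.25 and 0.25, which limits the size of change that was detectable there.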
